A study of Mus musculus with 25 samples.

Results

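The 37 mitosis genes described here code for proteins that condense, attach and separate chromosomes and divide the cell. They were chosen by gene name, with older aliases counted, and with earlier results of these data known. Counts of members beside shares of all genes are therefore description only. All 37 were on the array and passed the filter on dim probes, among 25464 genes (or probes without a gene name) tested. Total RNA from the colon of 8-week-old female mice was hybridised to 25 single-colour Agilent arrays, with 100 ng of RNA labelled with Cy3 for each. The mice were wild type (WT) C57BL/6j or Card9-/- on the same background, and Card9 codes for an adaptor protein of innate immune signalling. Dextran sulfate sodium (DSS), which injures the colon lining, was given at 2% in the drinking water for 7 days, and plain water followed for 5 days. The day 0 groups (3 WT and 3 Card9-/- arrays) received no DSS, the day 7 groups (5 WT and 4 Card9-/-) were taken at the end of DSS, and the day 12 groups (5 WT and 5 Card9-/-) after the days on water. The design text names 5 Card9-/- mice at day 7, of which 4 were analysed here. No array here is labelled as a mouse kept on plain water to day 7 or 12, so day of sampling and DSS cannot be told apart. Each array is labelled as a replicate of its group.

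Mitosis begins when Cdk1 and its cyclins are activated. The condensed chromosomes then attach to the spindle through kinetochores, a checkpoint holds the cell until all are attached, and the anaphase-promoting complex starts their separation. Most of these genes are transcribed mainly late in the cell cycle, so their transcripts mark dividing cells. In the colon such cells lie mainly in the crypts, and dividing immune and stromal cells add to them. In RNA of whole colon, fewer cells of a type and less RNA per cell cannot be told apart.

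Values are log2 of the processed signal minus the 75th percentile of the same array, called relative log2 signals here, and a difference of 1 is a 2-fold change. Calls were made with limma at an adjusted p under 0.05 (Benjamini-Hochberg, over all 25464 genes). Between 48% and 67.9% of the spots on an array were well above background. The single Card9 probe was brighter in the arrays labelled Card9-/- (group means of -1.20 to -0.58) than in the WT arrays (-6.06 to -5.43). The labels do not say which part of the gene was deleted, so this probe could not check them. Every direction between genotypes follows the labels and would be reversed if they were exchanged, which was not tested. Genes of the pancreatic acinar list were strongly raised on 4 arrays (Card9-/- day 7 replicates 2 and 3, Card9-/- day 12 replicate 1 and WT day 12 replicate 5). Genes of the proximal colon were raised in 2 of the 3 Card9-/- day 0 arrays and in WT day 7 replicate 1. The 15 epithelial markers, among them Epcam, Cdh1 and Krt20, were well above background in every group.

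At day 12 the mitosis genes were lower in Card9-/- colon than in WT colon. Of the 37 genes, 37 had a lower group mean in the Card9-/- arrays, where 51.8% of all genes tested had one, and the median difference was -1.08 (range -1.36 to -0.70) against -0.01 over all genes. In 35 of the 37, every Card9-/- array lay below every WT array, where this held for 2.98% of all genes. The 2 exceptions, Cenpf and Ttk, were among the dimmest. In 36 of the 37 the unadjusted p was under 0.05, where 5.99% of all genes had such a p in this direction. After adjustment 1 member was called, Oip5, where 0.0511% of all genes were called lower and 0.0707% in either direction. The members tended to rise and fall together, with 1 array the lowest for 34 of them and another the highest for 24. Counts of members are therefore not counts of independent observations.

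The number of members called rested on an array outside the comparison. Card9-/- day 7 replicate 3, which had the lowest signal of 34 of the 37 members, widened the spread that all 6 groups share. Without it 34 members were called lower at day 12 (264 of all genes, 1.04%), and the other 3 were Cenpf, Ttk and Aurkb. This array stood out by the members' own values, and no other single array left out gave a higher count (range 0 to 34). The calls and adjusted p-values without it, here and below, are therefore not independent of that choice. The fitted differences themselves were the same with and without it, and the SE of Mki67, for example, went from 0.32 to 0.19. With the arrays of the day 12 groups alone, 34 members were called lower as well (0.954% of all genes).

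The mean of the 37 genes on an array gives the same picture. It was 0.86, 1.12, 1.27, 1.24 and 1.35 in the WT arrays at day 12 and 0.31, 0.13, 0.04, 0.27 and -0.38 in the Card9-/- arrays. Every Card9-/- array lay below every WT array and below all day 0 arrays of both genotypes, which lay between 0.76 and 1.17. The arrays were spread over 4 slides, each with both genotypes at day 12. Within these slides the median Card9-/- minus WT difference of the members was -1.07, -1.03, -0.55 and -1.43, with 37, 37, 36 and 36 of 37 members below zero.

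**Figure D1:**
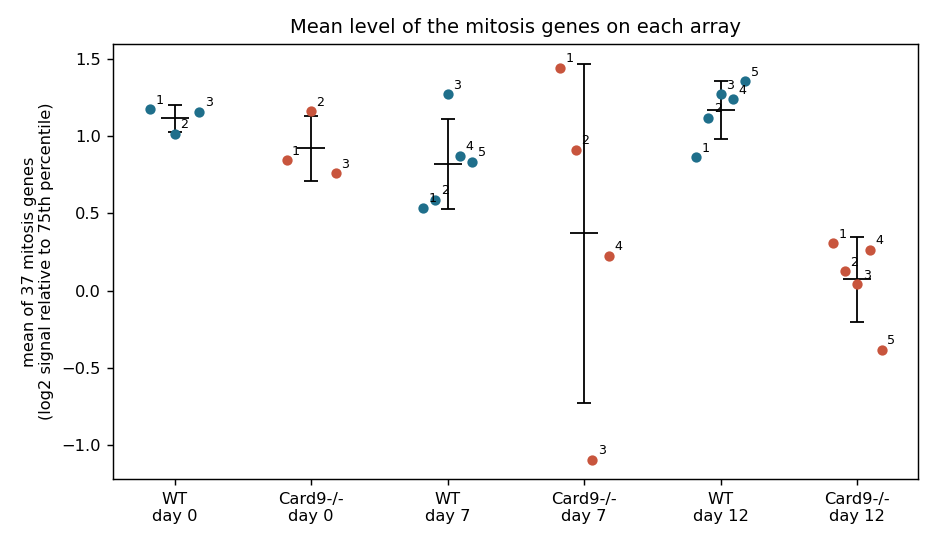
Mean relative log2 signal of the 37 mitosis genes on each of the 25 arrays, by genotype and day, with blue points for WT, red points for Card9-/- and the replicate number beside each point. Horizontal bars are group means and error bars the SD over arrays (n = 3, 3, 5, 4, 5 and 5). The Card9-/- day 12 arrays lie between -0.38 and 0.31 and the WT day 12 arrays between 0.86 and 1.35. The Card9-/- day 7 arrays run from -1.09 to 1.44.

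**Figure D2:**
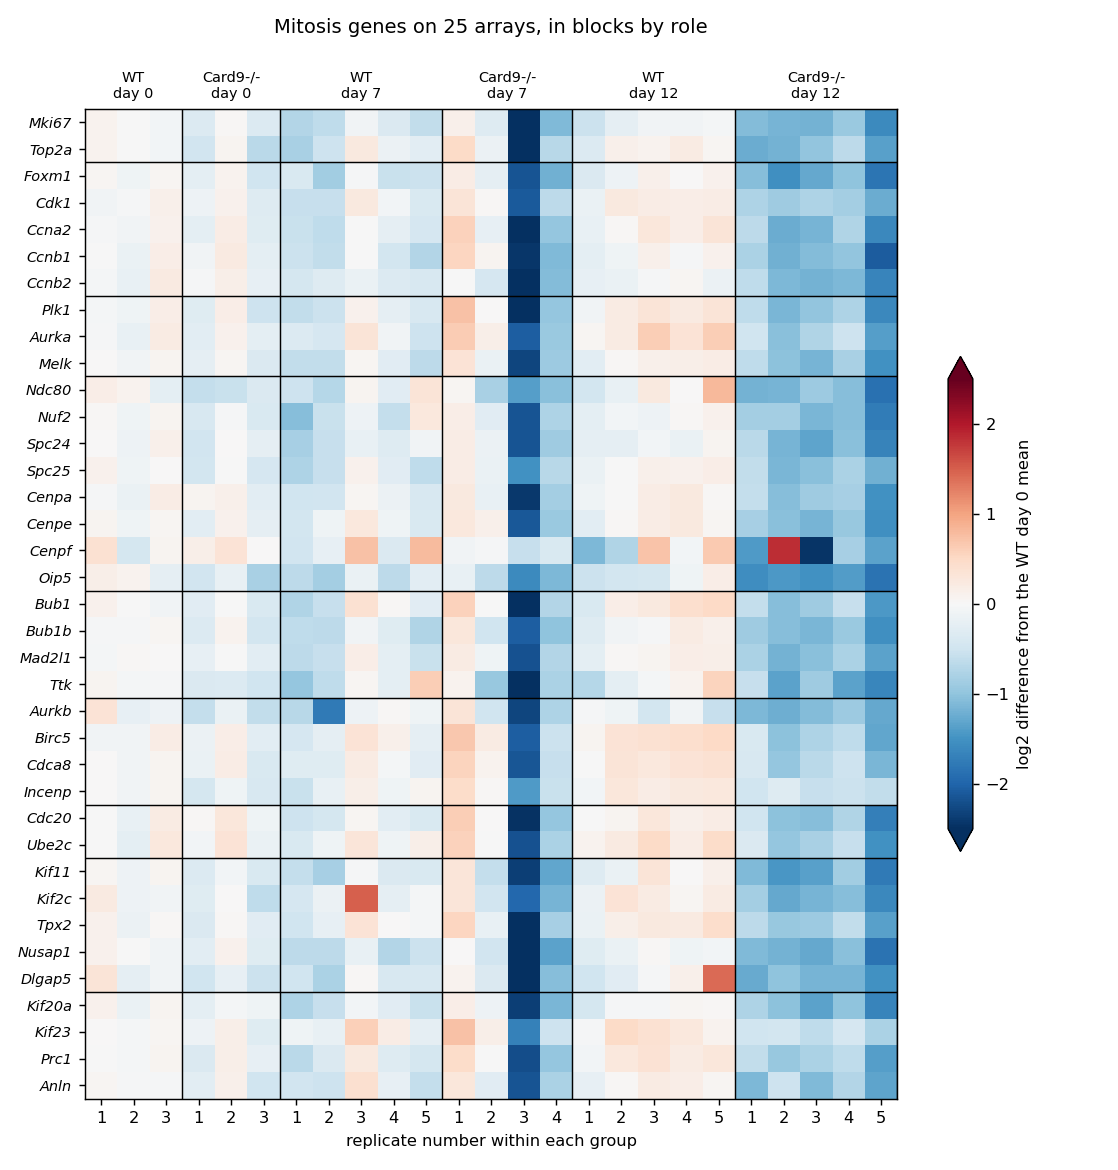
Relative log2 signal of each mitosis gene on each array as a difference from the mean of the WT day 0 arrays, blue for lower and red for higher, with black lines between groups and between the 9 roles. Differences beyond 2.5 take the end colour. The Card9-/- day 12 columns are blue in nearly all 37 genes, and Card9-/- day 7 replicate 3 is the darkest column. Cenpf, a dim gene, is the least even row.

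Promoters of 29 of the 37 members were listed in a RefSeq table (GRCm38.p6), and the 120 bases before the annotated start were searched on both strands. Late cell-cycle promoters are known for the sequence TTTGAA or TTTAAA, to which a repressing or activating complex binds, and for CCAAT, which binds the factor NF-Y. TTTGAA or TTTAAA was found in 11 of the 29 members (37.9%) and in 13.5% of 27025 genes. CCAAT was found in 20 members (69%) and in 24.2% of genes, and at least 2 copies of it in 13 members (44.8%) and in 5.37% of genes. Both kinds of sequence stood together in 9 members (31%) and in 2.94% of genes. TTTGAA and CCAAT can share a base at their ends, TTTAAA reads the same on both strands, and a match is a description of the sequence only. Foxm1, Ccna2, Spc24, Aurkb, Incenp, Tpx2, Dlgap5 and Kif20a were not matched. The 7 windows below are shown because they belong to genes described further on and hold these sequences in different arrangements. They run 5′ to 3′ in the direction of the gene, the last base is the one before the start, and capitals mark these sequences or their reverse complements (TTCAAA for TTTGAA and ATTGG for CCAAT). Cdk1 (chr10:69352913-69353032, minus strand), Cdc20 (chr4:118437344-118437463, minus strand), Top2a (chr11:99024190-99024309, minus strand) and Ube2c (chr2:164769809-164769928, plus strand) hold TTTGAA with CCAAT. Ccnb1 (chr13:100786487-100786606, minus strand) and Plk1 (chr7:122159315-122159434, plus strand) hold TTTAAA with CCAAT, and Oip5 (chr2:119618506-119618625, minus strand) holds CCAAT 3 times and neither of the others.
Cdk1: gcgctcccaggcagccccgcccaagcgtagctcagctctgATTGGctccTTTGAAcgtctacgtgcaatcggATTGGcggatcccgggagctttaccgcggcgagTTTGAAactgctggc
Ccnb1: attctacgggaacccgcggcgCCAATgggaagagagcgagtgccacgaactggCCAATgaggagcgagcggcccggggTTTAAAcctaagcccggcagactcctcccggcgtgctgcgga
Plk1: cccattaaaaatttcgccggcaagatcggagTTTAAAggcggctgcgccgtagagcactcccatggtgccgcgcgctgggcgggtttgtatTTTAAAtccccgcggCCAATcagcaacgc
Top2a: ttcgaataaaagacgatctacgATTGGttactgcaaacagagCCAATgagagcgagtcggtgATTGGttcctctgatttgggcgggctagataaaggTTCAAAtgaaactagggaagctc
Cdc20: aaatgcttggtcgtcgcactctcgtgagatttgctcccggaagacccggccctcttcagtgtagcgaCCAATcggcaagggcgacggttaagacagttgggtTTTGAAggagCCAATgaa
Ube2c: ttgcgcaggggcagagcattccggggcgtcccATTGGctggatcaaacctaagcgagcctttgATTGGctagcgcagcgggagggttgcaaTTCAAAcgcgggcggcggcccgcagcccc
Oip5: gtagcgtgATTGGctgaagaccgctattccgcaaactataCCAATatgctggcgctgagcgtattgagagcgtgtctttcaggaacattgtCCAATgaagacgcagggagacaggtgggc

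The probes of the 12 genes given array by array lay, in mm9, at Oip5 chr2:119435859-119435918, Ndc80 chr17:71860793-71861755, Spc25 chr2:69031953-69032012, Foxm1 chr6:128324783-128324842, Kif11 chr19:37495755-37495814, Bub1b chr2:118466830-118466889, Kif2c chr4:116832904-116832963, Cenpe chr3:134936387-134936446, Mki67 chr7:142881591-142881650, Top2a chr11:98855522-98855581, Cdk1 chr10:68801072-68801131 and Ccnb1 chr13:101548722-101548781.

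Among the genes that start mitosis, Foxm1, a transcription factor of late cell-cycle genes, differed most at day 12. Its relative log2 signals were -0.2, 0.03, 0.28, 0.17 and 0.26 in the 5 WT arrays and -0.91, -1.37, -1.11, -0.85 and -1.66 in the 5 Card9-/- arrays. All Card9-/- arrays were low and the groups did not overlap. The difference was -1.29 (SE 0.30), or 2.44-fold higher in WT, with an adjusted p of 0.129, and of 0.0066 without Card9-/- day 7 replicate 3. At day 0 the signals of Foxm1 were 0.21, 0.06 and 0.21 in WT and -0.08, 0.25 and -0.34 in Card9-/- arrays. The WT ranges of days 0 and 12 overlapped, and the Card9-/- arrays of day 12 lay below all of these.

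Cdk1, the kinase that drives cells into mitosis, and Ccnb1, its cyclin partner, followed the same course. Cdk1 gave 0.81, 1.23, 1.16, 1.14 and 1.17 in the WT arrays at day 12 and 0.2, 0.09, 0.21, 0.13 and -0.26 in the Card9-/- arrays, a difference of -1.03 (SE 0.29, adjusted p 0.21). Within each group 1 array stood a little below the other 4, replicate 1 in WT and replicate 5 in Card9-/-, and the groups did not overlap. Ccnb1 gave 1.74, 1.87, 2.1, 1.95 and 2.09 in WT and 1.18, 0.77, 0.9, 1 and -0.11 in Card9-/- arrays, a difference of -1.20 (SE 0.37, adjusted p 0.243). Again no values overlapped, and Card9-/- replicate 5 was the lowest. Ccna2 and Ccnb2, 2 further mitotic cyclins, differed by -1.20 and -1.05 with no overlap. With Card9-/- day 7 replicate 3 left out, the adjusted p-values were 0.00678 for Cdk1, 0.0197 for Ccnb1, 0.0109 for Ccna2 and 0.00621 for Ccnb2.

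Mki67, whose protein coats mitotic chromosomes and is the usual stain for dividing cells, and Top2a, the enzyme that untangles sister DNA, were lower by a like amount. The signals of Mki67 at day 12 were 3.9, 4.21, 4.36, 4.36 and 4.4 in WT and 3.36, 3.28, 3.25, 3.52 and 2.84 in Card9-/- arrays. The lowest WT array was above the highest Card9-/- array, and the means differed by -0.99 (SE 0.32, adjusted p 0.26), or 1.99-fold. Those of Top2a were 1.08, 1.54, 1.51, 1.62 and 1.46 in WT and 0.18, 0.24, 0.44, 0.76 and 0.07 in Card9-/- arrays. They did not overlap either, with a difference of -1.11 (SE 0.35, adjusted p 0.268). Without Card9-/- day 7 replicate 3 the adjusted p was 0.0109 for Mki67 and 0.0129 for Top2a.

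Mitotic kinases beside Cdk1 were measured by 3 members. Plk1, which acts at centrosomes and kinetochores, differed by -1.23 at day 12, Aurka, which builds the spindle poles, by -1.21, and Melk, a kinase of dividing cells, by -1.07. In all 3 the Card9-/- arrays lay below the WT arrays, and the adjusted p-values were 0.243, 0.199 and 0.227.

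The kinetochore and centromere genes held the 1 member that passed the test. Oip5, part of the complex that prepares centromeres for new Cenpa, had signals of -1.71, -1.63, -1.61, -1.28 and -1.01 in WT and -2.71, -2.6, -2.69, -2.57 and -3.01 in Card9-/- arrays at day 12. The Card9-/- arrays were closely grouped and far below the WT arrays, with means of -2.71 ± 0.18 and -1.45 ± 0.29 (SD, n = 5 each). Oip5 differed by -1.27 on the log2 scale (SE 0.21), with an adjusted p of 0.0118. Over 36 alternatives its adjusted p ran from 0.00319 to 0.108 and was under 0.05 in 31. The call was lost without WT day 12 replicate 4 (0.0511), WT day 12 replicate 5 (0.0523) or Card9-/- day 12 replicate 5 (0.0571), with normexp background correction (0.108) and with the deposited value table (0.0991).

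The Ndc80 complex, which binds spindle microtubules, was covered by all 4 of its subunits. Ndc80 gave -1.33, -1.06, -0.63, -0.87 and -0.06 in WT and -2.06, -2.04, -1.77, -1.93 and -2.73 in Card9-/- arrays. Its WT arrays were more spread than those of its partners, yet none reached down to the Card9-/- arrays, and the difference was -1.31 (SE 0.26, adjusted p 0.0618). Spc25 gave 3.68, 3.82, 3.96, 3.94 and 4 in WT and 3.22, 2.69, 2.8, 3.05 and 2.64 in Card9-/- arrays, again with no overlap. That difference was -1 (SE 0.23, adjusted p 0.124). Nuf2 and Spc24, the other subunits, differed by -1.07 and -1.05. Without Card9-/- day 7 replicate 3 the adjusted p was 0.012 for Ndc80, 0.00718 for Spc25, 0.0156 for Nuf2 and 0.0107 for Spc24.

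Cenpe, a motor that carries chromosomes to the middle of the spindle, gave 2.62, 2.92, 3.07, 3.14 and 2.94 in WT and 2.05, 1.84, 1.72, 1.93 and 1.35 in Card9-/- arrays at day 12. The groups were apart, with a difference of -1.16 (SE 0.30, adjusted p 0.185). Cenpa, the histone variant that marks the centromere, differed by -1.04. Cenpf, a large protein of the outer kinetochore, did not separate the groups. Its probe was well above background on 14 of the 25 arrays, with 1 of 5 in the Card9-/- day 12 group and 3 of 5 in the WT day 12 group. It gave -4.93, -4.57, -3.1, -3.88 and -3.15 in WT and -5.23, -1.96, -6.26, -4.64 and -5.16 in Card9-/- arrays, where Card9-/- replicate 2 was the highest of all 25 arrays and replicate 3 the lowest. Its difference of -0.73 had an SE of 0.55 and an adjusted p of 0.786.

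All 4 spindle checkpoint genes had lower means in the Card9-/- arrays. Bub1b, which blocks anaphase until chromosomes are attached, gave -0.41, -0.16, -0.1, 0.12 and 0.05 in WT and -0.96, -1.15, -1.23, -1 and -1.62 in Card9-/- arrays. The groups did not overlap, and the difference was -1.09 (SE 0.28, adjusted p 0.185, or 0.00891 without Card9-/- day 7 replicate 3). Bub1, a kinase of the same checkpoint, differed by -1.10 and Mad2l1, which inhibits Cdc20, by -1.06. Ttk, the kinase that starts the checkpoint, differed by -1.08 but its groups overlapped: WT arrays gave -3.71, -3.23, -3.04, -2.9 and -2.43 and Card9-/- arrays -3.56, -4.33, -3.87, -4.32 and -4.63. Here WT replicate 1 lay below Card9-/- replicate 1. The Ttk probe was well above background on all 5 WT arrays of day 12 and on 2 of the 5 Card9-/- arrays.

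The chromosomal passenger complex, which corrects faulty attachments, was measured by all 4 subunits. Birc5 and Cdca8, 2 subunits that target the complex to the centromere, differed by -1.16 and -1. Aurkb, the kinase, differed by -0.88, with a probe well above background on 4 of 5 WT arrays and 1 of 5 Card9-/- arrays of day 12. Incenp, the scaffold, had the smallest difference of the 37 members. Its signals were 3.82, 4.17, 4.08, 4.14 and 4.16 in WT and 3.4, 3.56, 3.31, 3.36 and 3.28 in Card9-/- arrays, which do not overlap, and the difference was -0.70 (SE 0.22, adjusted p 0.268). Without Card9-/- day 7 replicate 3 the adjusted p was 0.00805 for Birc5, 0.00943 for Cdca8, 0.0248 for Incenp and 0.171 for Aurkb. Cdc20, the activator of the anaphase-promoting complex, and Ube2c, the enzyme that loads ubiquitin for it, differed by -1.14 and -1.14, both without overlap.

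The spindle motors and assembly factors had the largest median difference of the 9 roles, -1.31. Kif11, the motor that pushes spindle poles apart, gave -0.86, -0.7, -0.23, -0.54 and -0.42 in WT and -1.65, -2, -1.91, -1.42 and -2.31 in Card9-/- arrays. The difference was -1.31 (SE 0.31, adjusted p 0.14), and the groups did not overlap. Kif2c, which shortens microtubules at faulty attachments, gave -2, -1.52, -1.65, -1.8 and -1.64 in WT and -2.7, -3.13, -3.02, -2.92 and -3.47 in Card9-/- arrays. These groups lay apart as well, with a difference of -1.33 (SE 0.34, adjusted p 0.185). Dlgap5, a spindle factor, had the largest difference of all members, -1.36, but WT replicate 5 stood far above the rest. Its WT arrays gave -2.02, -1.81, -1.56, -1.4 and -0.1 and its Card9-/- arrays -2.78, -2.52, -2.69, -2.69 and -3.03, without overlap. Tpx2 and Nusap1, which gather microtubules near chromosomes, differed by -1.08 and -1.17. Leaving out Card9-/- day 7 replicate 3, the adjusted p was 0.00749 for Kif11, 0.0295 for Kif2c and 0.0157 for Dlgap5.

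The 4 genes of cytokinesis, the last step of division, ran from -1.08 to -0.79. Prc1, which bundles microtubules between the separating chromosomes, differed by -1.08, and Kif20a, a motor of the same structure, by -1.07. Anln, a scaffold of the contractile ring, differed by -1 and Kif23, a motor of the central spindle, by -0.79. None of these 4 overlapped between genotypes, and none was called with all arrays (adjusted p 0.232, 0.217, 0.241 and 0.351). Several probes measured 14 of the members, 33 in all. Each of the 33 probes had a lower mean in the Card9-/- arrays at day 12, and 20 of them were well above background on all 25 arrays. Among the other 13, numbered by brightness within a gene, Nuf2 probes 2 and 3 and Kif23 probe 2 were well above background on 0 arrays. Their differences were -0.07, -0.31 and -0.03, and Cdk1 probe 3 was well above background on 2 arrays. The direction of these probes carries little weight.

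**Figure D3:**
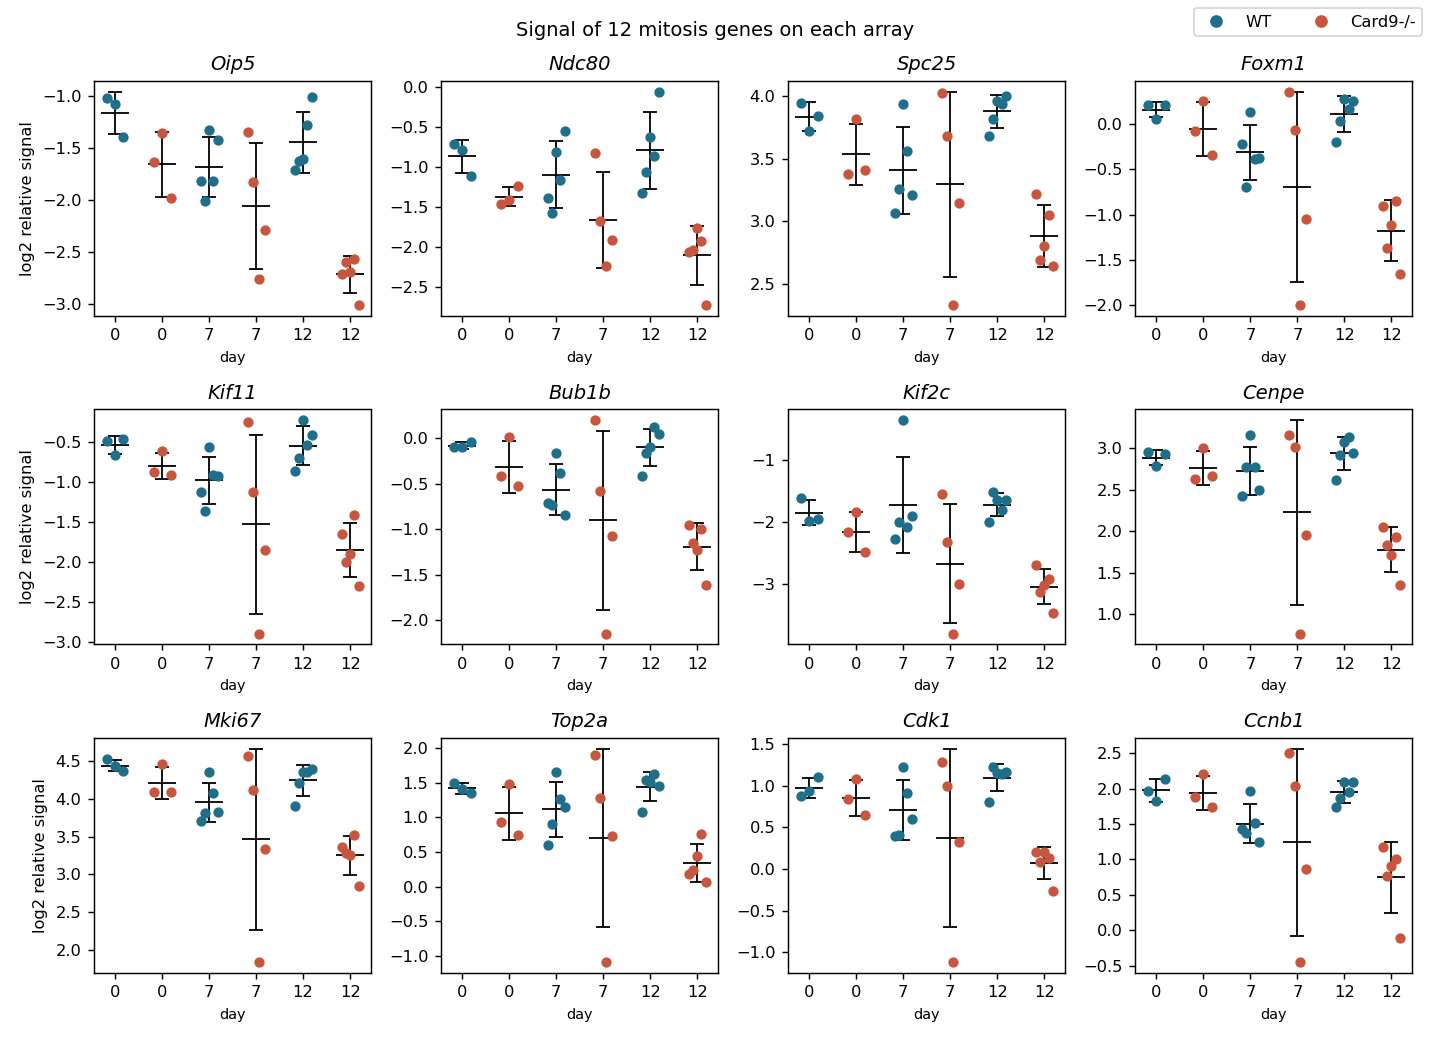
Relative log2 signal of 12 mitosis genes on each array, with blue points for WT, red points for Card9-/-, horizontal bars for group means and error bars for the SD. Each panel has its own vertical axis, so heights are not comparable between genes. In each of the 12 panels the Card9-/- day 12 arrays lie below the WT day 12 arrays, and the Card9-/- day 7 arrays have the widest spread.

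After the days on water the Card9-/- arrays lay below their own day 0 level and the WT arrays near theirs. The test of the difference between these changes called 0 members (0.00393% of all genes). From day 0 to day 12 the median member difference was 0.05 in WT (23 of 37 members above zero and 14 below, where 46.1% of all genes were below) and -0.87 in Card9-/- arrays (37 of 37 below zero, where 54% of all genes were). In Card9-/- arrays 34 of 37 members did not overlap between day 0 and day 12 (9.66% of all genes in this direction), 23 had an unadjusted p under 0.05 (10.8%), and 1 was called lower (3.26%). In WT arrays 0 members were called from day 0 to day 12 (1.73% of all genes), 0 had an unadjusted p under 0.05 (5.78% of all genes did as lower and 7.53% as higher) and the smallest adjusted p was 0.708 in limma. The Card9-/- day 12 arrays also enter the genotype comparison above, so the comparisons share them.

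Over this interval 1 of 37 members was called, a smaller share than the 3.26% of all genes called lower. The count of calls alone therefore does not set the members apart. The called member was again Oip5. Its signals were -1.64, -1.36 and -1.98 at day 0 and -2.71, -2.6, -2.69, -2.57 and -3.01 at day 12 in Card9-/- arrays, with no overlap. It fell by 1.05 (SE 0.24, adjusted p 0.012). In WT arrays it went from -1.02, -1.08 and -1.4 to -1.71, -1.63, -1.61, -1.28 and -1.01, a difference of -0.28 (adjusted p 0.708). The call in Card9-/- arrays was lost with normexp background correction (0.0655), without Card9-/- day 0 replicate 1 (0.0653) or 2 (0.0995), the 2 arrays with raised proximal colon genes, and with the mean of those genes as a covariate (0.114). Its adjusted p ran from 0.00522 to 0.114 over the alternatives.

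Ccnb1 had the largest fitted difference over the same interval in Card9-/- arrays. It gave 1.88, 2.2 and 1.74 at day 0 and 1.18, 0.77, 0.9, 1 and -0.11 at day 12, a difference of -1.19 (SE 0.42, adjusted p 0.1). The groups did not overlap. Nusap1, Foxm1 and Ccnb2 followed with -1.14, -1.12 and -1.12. Mki67 went from 4.09, 4.46 and 4.09 to 3.36, 3.28, 3.25, 3.52 and 2.84, a difference of -0.97 (adjusted p 0.131), again without overlap. Top2a, Cenpf and Incenp were the 3 members whose day 0 and day 12 values overlapped, with differences of -0.72, -1 and -0.20. By role, the genes that start mitosis had the largest median, -1.12, and the chromosomal passenger complex the smallest, -0.64. With Card9-/- day 7 replicate 3 left out, 20 members were called lower from day 0 to day 12 (4.01% of all genes).

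**Figure D4:**
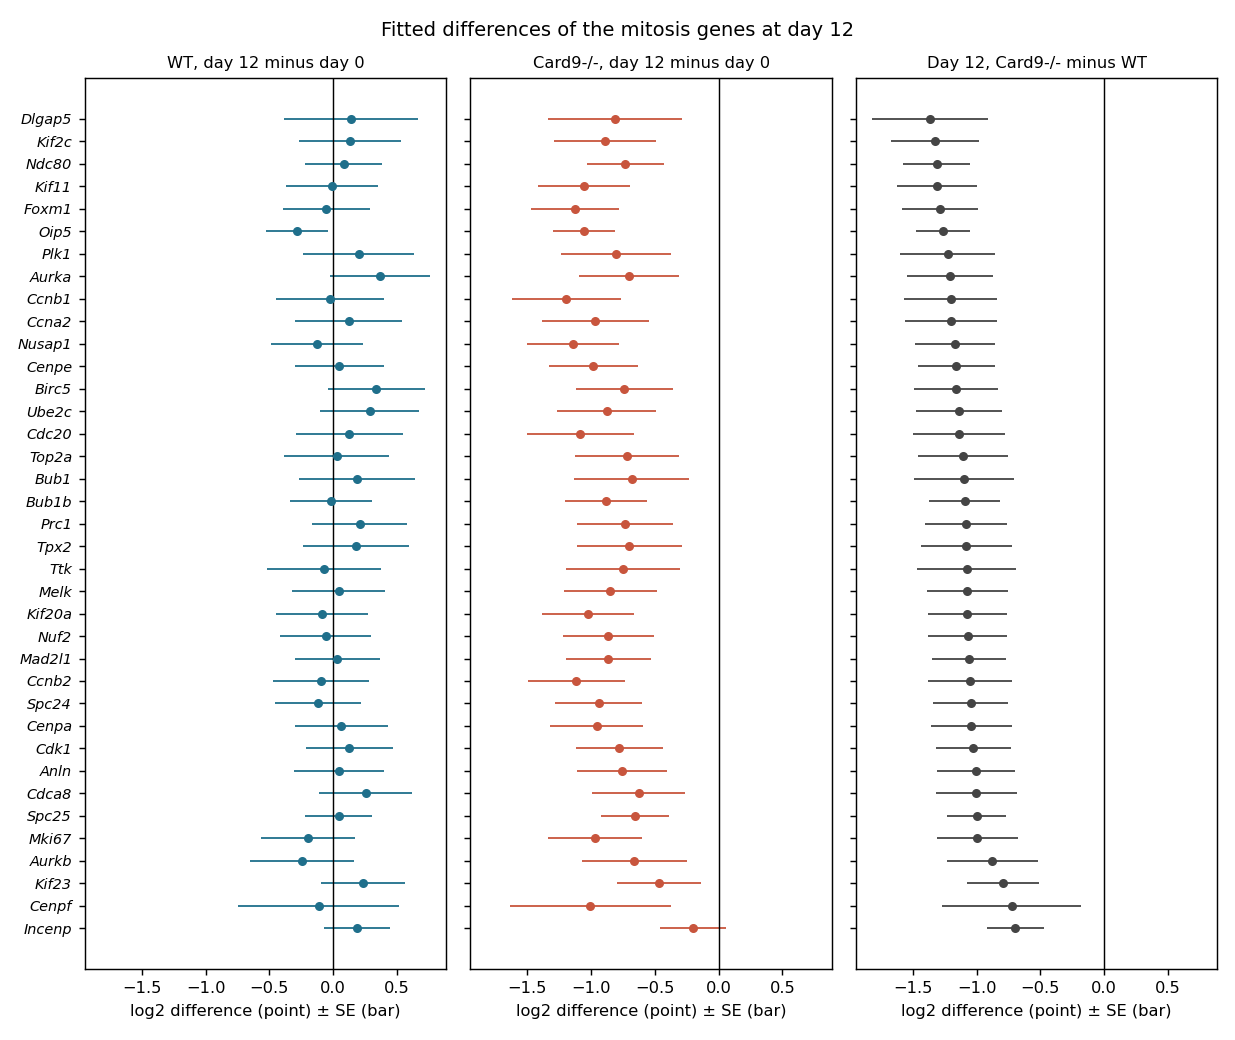
Fitted log2 differences (points) and their SE (bars) of the 37 mitosis genes, ordered by the genotype difference at day 12, in 3 panels: WT day 12 minus day 0 (blue), Card9-/- day 12 minus day 0 (red) and Card9-/- minus WT at day 12 (grey). The vertical line is no difference. The WT points run from -0.28 to 0.37 around the line, the Card9-/- points from -1.19 to -0.20 and the genotype points from -1.36 to -0.70.

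At day 7 the WT arrays were slightly below day 0. The median member difference was -0.31, 34 of 37 members were below zero (46.9% of all genes were), 0 were called (4.35% of all genes were, 2.32% in this direction), and 1 had an unadjusted p under 0.05 in this direction (9.83%). That gene was Oip5, with -1.82, -2.01, -1.33, -1.82 and -1.43 at day 7, a difference of -0.52 (adjusted p 0.284). Mki67, Bub1b and Nusap1 were the 3 members (7.19% of all genes) whose WT arrays of day 7 all lay below those of day 0. For Mki67 these were 4.52, 4.43 and 4.37 at day 0 and 3.71, 3.81, 4.35, 4.07 and 3.83 at day 7, a difference of -0.49 (SE 0.37, adjusted p 0.553). From day 7 to day 12 the WT median was 0.36 with 36 of 37 members above zero, where 48.6% of all genes were below. No member was called, with a count of 0 (0.487% of all genes) and a smallest adjusted p of 0.388 in limma, and 0 had an unadjusted p under 0.05 (8.74% of all genes did as higher and 4.39% as lower). Cenpf was the exception, at -0.20.

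The Card9-/- arrays of day 7 differed widely among themselves. Their means over the 37 members were 1.44, 0.91, -1.09 and 0.23 for replicates 1 to 4, an SD of 1.10 against 0.29 in the WT arrays of day 7. Replicate 1 was the highest of all 25 arrays for 24 members and replicate 3 the lowest for 34. Plain values show the width: Mki67 gave 4.57, 4.12, 1.84 and 3.33, Top2a 1.9, 1.28, -1.09 and 0.73, Cdk1 1.29, 1, -1.12 and 0.33 and Ccnb1 2.51, 2.04, -0.45 and 0.87. In each of these the order of the 4 arrays was the same, with replicate 3 lowest. Replicate 3 also had the highest red blood cell list mean of the 25 arrays (3.23 above the WT day 0 mean, where the other Card9-/- day 7 arrays had 1.33 to 2.15) and held acinar RNA. Replicate 2 held as much acinar RNA (13.3 against 13.7) and had a member mean of 0.91. Replicate 3 was also a dim array, with a 75th percentile signal of 204.6, where the 25 arrays ran from 196.1 to 661.3. On the same slide, WT day 7 replicate 5 (214.7) and Card9-/- day 12 replicate 1 (196.1) had member means of 0.83 and 0.31. The part of these lists and of array brightness in the result was not tested.

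Against this spread, the Card9-/- change from day 0 to day 7 had a median of -0.54 with 37 of 37 members below zero (56.7% of all genes), 0 called (19.7% in either direction, 12.7% as lower) and 2 with an unadjusted p under 0.05 in this direction (20.3%). These were Ccnb2 (-1.05, adjusted p 0.0672) and Nusap1 (-0.97, adjusted p 0.0757). Cenpf was the 1 member without overlap between these groups (18% of all genes). Leaving out replicate 1 gave 10 members called lower (14% of all genes), leaving out replicate 2 gave 2 (9.98%), and the median over all choices of 1 array left out ran from -0.90 to -0.06. From day 7 to day 12 the Card9-/- median was -0.30 with 37 of 37 below zero (47.5% of all genes), and 0 were called (7.7% of all genes in either direction, 1.97% as lower). One member, Oip5, had an unadjusted p under 0.05 in this direction (7.18% of all genes), with a difference of -0.66 and an adjusted p of 0.0769. This interval turned on single arrays of day 7. Without replicate 3 the median was -0.78 and 17 members were called lower (1.86% of all genes), and without replicate 1 the median was 0.10 and 0 were called (2.29% of all genes as lower).

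Between genotypes the earlier days showed smaller and less even differences. At day 0 the median was -0.20 with 34 of 37 members below zero (42.1% of all genes). No member was called, where 0.00393% of all genes were, and 0 had an unadjusted p under 0.05 (2.14% of all genes as lower). Ndc80, Ttk and Incenp were the 3 members without overlap (5.73% of all genes). Ndc80 gave -0.71, -0.79 and -1.11 in WT and -1.46, -1.42 and -1.24 in Card9-/- arrays at day 0, a difference of -0.50 with an adjusted p of 1 in limma. At day 7 the median was -0.38 with 37 of 37 below zero (58.4%), 0 were called (0.55% in either direction, 0.404% as lower) and 3 had an unadjusted p under 0.05 in this direction (10.5%). These 3 were Kif2c, Ttk and Ccnb2, and 0 members were without overlap (1.61%). Kif2c gave -2.28, -2, -0.35, -2.08 and -1.9 in WT and -1.55, -2.33, -3.81 and -3.01 in Card9-/- arrays at day 7. WT replicate 3 stood far above the others, the groups overlapped, and the difference was -0.95 (SE 0.36, adjusted p 0.19). Without Card9-/- replicate 3 the day 7 median was 0.08.

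The test of whether the genotypes changed differently over time called 0 members in each of the 3 intervals. From day 0 to day 12 the median difference in change was -0.90, with 37 of 37 members below zero (57.4% of all genes) and 4 with an unadjusted p under 0.05 in this direction (3.95%). Oip5 had the smallest p of these, 0.0366, with a difference in change of -0.77 (SE 0.34, adjusted p 0.695). The other 3 included Foxm1 (-1.07, p 0.0392) and Cenpe (-1.03, p 0.0494). From day 7 to day 12 the median was -0.69, with 37 of 37 below zero (45.9%) and 3 with an unadjusted p under 0.05 (3.03%), namely Oip5, Spc25 and Foxm1. Oip5 had an adjusted p of 0.512 there, with a difference in change of -0.89. From day 0 to day 7 the median was -0.26, with 33 of 37 below zero (61.3%) and 0 with an unadjusted p under 0.05 (7.18% of all genes as lower). Over all genes, 1, 2 and 1 were called from day 0 to day 7, day 7 to day 12 and day 0 to day 12 (0.00393%, 0.00785% and 0.00393%).

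Other genes of the cell cycle were counted from 8 lists with 145 genes, of which 143 were tested. At day 12 all 8 had a median below zero in Card9-/- against WT arrays. Over all genes 51.8% were below zero and 2.98% were lower without overlap. Of 39 further mitotic genes, 39 were below zero with a median of -0.999, and 30 did not overlap between genotypes. Cohesin, condensin and separase genes, which hold and compact sister chromosomes, had a median of -0.75 with 16 of 16 below zero and 11 without overlap. DNA replication genes had a median of -0.74 with 25 of 26 below zero and 21 without overlap. Part of this was present before DSS. At day 0 the replication list already had a genotype median of -0.44, with 26 of 26 below zero (42.1% of all genes). Its median difference in change from day 0 to day 12 was -0.31. The day 0 medians of the further mitotic and the cohesin, condensin and separase lists were -0.22 and -0.18, with 35 of 39 and 12 of 16 below zero. The G1 and S phase cyclins, kinases and E2F factors had a median of -0.40 (10 of 14 below zero, 3 without overlap) and the CDK inhibitors -0.22 (4 of 7, 1 without overlap). Subunits of the anaphase-promoting complex had a median of -0.11 (13 of 15 below zero, 3 without overlap) and the DREAM and MuvB complex, which binds late cell-cycle promoters, -0.13 (11 of 13, 2 without overlap). Crypt stem cell and Wnt target genes had a median of -0.15, with 9 of 13 below zero and 0 without overlap. None of the 8 lists held a called gene at day 12 (0.0707% of all genes were called). Without Card9-/- day 7 replicate 3 the genes called lower (1.04% of all genes) were 26 of the 39 further mitotic genes, 14 of 26 replication genes, 9 of 16 cohesin and condensin genes and 1 gene each of the G1 and S phase, DREAM and anaphase-promoting complex lists.

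From day 0 to day 12 in Card9-/- arrays, 9 of the 143 genes tested in these lists were called, all lower (6.29%, where 3.26% of all genes were called lower), and some are named here. Of the further mitotic genes these included Ckap2, a spindle protein (-1.25, adjusted p 0.0174), Wee1, the kinase that restrains Cdk1 (-0.79, adjusted p 0.0234), and Fam83d, a spindle protein (-0.96, adjusted p 0.0277). Ncapg, a condensin subunit, fell by 1.48 (adjusted p 0.0228). Cdk6, a kinase of the first phase of the cycle, fell by 2.28 (adjusted p 0.00984), Axin2, a Wnt target, by 1.60 (adjusted p 0.0166) and Cdkn2c, an inhibitor of Cdk6, by 0.98 (adjusted p 0.0256). At day 7 some of the same genes had already passed the test in Card9-/- arrays, with Cdk6 at -2.55 and Axin2 at -2.39, and in WT arrays, with Cdk6 at -1.89 and Axin2 at -1.69. Lgr5, a marker of crypt stem cells, fell by 3.87 at day 7 in Card9-/- arrays (adjusted p 0.00512). The day 7 and day 12 comparisons share the day 0 arrays.

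At day 12 no gene of the 11 marker lists of tissues and cell types was called between genotypes in limma (0.0707% of all genes were). The 15 epithelial markers had a median Card9-/- minus WT difference of 0.02, and their mean lay between -0.15 and 0.22 of the WT day 0 mean on the Card9-/- arrays and between -0.11 and 0.13 on the WT arrays. The ranges of the epithelial list overlapped between genotypes, and those of the mitosis gene mean did not. Single markers of the list varied, with 7 of the 15 below zero. Slc26a3, a colonocyte marker in it, was higher without overlap, at 4.588 to 5.459 on the Card9-/- arrays and 3.674 to 4.477 on the WT arrays. The lists of B cells, neutrophils, macrophages and fibroblasts had medians of 0.98, 0.70, 0.54 and 0.50, all higher in Card9-/- arrays. B cell list means ran from 0.56 to 1.64 on the Card9-/- arrays and from -0.65 to 1.31 on the WT arrays. Acinar list means of the Card9-/- arrays ran from -0.36 to 12.8 and those of the WT arrays from -0.41 to 7.38. The part of these lists in the result was not tested. Without the 4 arrays that held acinar RNA the median member difference at day 12 was -1.13, and 19 members were called lower (0.401% of all genes). These 4 include Card9-/- day 7 replicate 3, and leaving out that array alone gave 34 (1.04%).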

How the data were processed

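Colon RNA was measured on 25 single-colour Agilent arrays in 6 groups of genotype and day. The authors deposited scanner output whose processed intensity per spot was made with Agilent Feature Extraction 10.7.3.1, per the submitters' processing notes and file headers. The deposited table of log2 values (33418 probes), whose processing the labels do not state, correlated with log2 median signal at 0.9954 or more on each array and was an alternative only; its column medians were 7.906 to 7.911, and its scale is likely log2 with unknown centring. Here log2 intensity minus the 75th percentile of each array's non-control spots was fitted with limma 3.58.1 (R 4.3.3) across all genes. The fit used 6 group means, 12 contrasts and probes well above background on at least 3 arrays, with the brightest probe per gene. Names came from RefSeq (GRCm38.p6; 27656 of 55681 probes by accession, 3722 by symbol), and probe positions are mm9. Exon positions were not used here. The number of arrays limits the precision, and p-values measure the spread between arrays. The members and lists were chosen with earlier results of these data known. Members described array by array were those called, then those with the smallest p up to 8, plus Mki67, Top2a, Cdk1 and Ccnb1. Cenpf, Ttk, Dlgap5 and Incenp were added after their values were seen. The counts of groups without overlap were also added after the data were seen. The scripts were tested on simulated data. Alternatives were background correction, normalization, filters, probe choice, slide, replicate number, proximal colon genes and arrays left out.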

Additional observations from a re-analysis of the deposited data

Results flagged for a closer look

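For 12 genes described array by array and the mean of the members, 52 groups of 4 or 5 arrays were examined for 1 array far from the others, and 3 had one, where chance gives about 1 in 20. Kif2c was at -0.348 on WT day 7 replicate 3, with the other WT day 7 arrays between -2.283 and -1.9. Cdk1 was at 0.807 on WT day 12 replicate 1, below the other WT day 12 arrays, which lay between 1.143 and 1.225. Cdk1 was also at -0.256 on Card9-/- day 12 replicate 5, below the other Card9-/- day 12 arrays, which lay between 0.094 and 0.205.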

How the results depend on the processing

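Over single arrays left out, the median member difference crossed zero in 3 comparisons that rest on the Card9-/- day 7 arrays: -0.783 to 0.102 for day 12 against day 7 in Card9-/- arrays, -0.76 to 0.083 between genotypes at day 7 and -0.617 to 0.278 for the difference in change from day 0 to day 7. At day 12 between genotypes, where 1 member was called, the count was 0 with normexp background correction (offset 50; 0.0236% of all genes called lower), 0 with the deposited value table (0.0466%), 2 with a filter of 13 arrays (0.0934%), 19 without the 4 arrays with acinar RNA (0.401% of all genes called lower) and 34 with the 2 groups alone (0.954%). The 4 acinar arrays include Card9-/- day 7 replicate 3, whose removal alone is given next. Leaving out 1 array gave 0 to 34: 0 without WT day 12 replicate 4 (0.0353%) or 5 (0.0432%) or Card9-/- day 12 replicate 5 (0.0314%), 6 without Card9-/- day 7 replicate 1 (0.13%) and 34 without its replicate 3 (1.04%). The median difference stayed between -1.173 and -0.963 over these. From day 0 to day 12 in Card9-/- arrays, where 1 member was called, the count was 2 with normexp (2.58%), 3 with the 13-array filter (4.7%), 2 with the mean of all probes (2.93%), 0 with proximal colon genes as a covariate (0.452%), 21 without the 4 acinar arrays (4.07% of all genes called lower) and 14 with the 2 groups alone (2.5%). Leaving out 1 array gave 0 to 20, with 0 without Card9-/- day 0 replicate 1 (0.848%) or 2 (0.699%) and 20 without Card9-/- day 7 replicate 3 (4.01%). Those ranges were 0 to 10 for day 7 against day 0 and 0 to 17 for day 12 against day 7 in Card9-/- arrays, and 0 to 1 between genotypes at day 7. Beside the highest counts, 14%, 1.86% and 1.8% of all genes were called lower. With slide as a block the median was -0.421 at day 0 between genotypes and -0.602 for the difference in change from day 0 to day 12. The cause of these shifts was not tested. Whether replicate numbers pair the arrays is not known: correlations of same-numbered arrays ran from -0.444 to 0.682, and the 6 pairs of replicate 4 from 0.071 to 0.354. With the replicate block 1 member was called at day 12 between genotypes (0.0628% of all genes called lower) and 1 from day 0 to day 12 in Card9-/- arrays (2.94%), and it changed no other call. Dim signals limit Cenpf, Aurkb and Ttk.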
